A study of Mus musculus with 9 samples.

Results

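Complement is a cascade of plasma and tissue proteins that marks microbes and cell debris for removal. C1q, built from A, B and C chains, starts the classical pathway when it binds antibody or altered surfaces; C3 and factor B drive the alternative pathway; inhibitors such as the C1 inhibitor and CD55 hold both in check. In the lung, macrophages are a main source of C1q and carry the receptors for the C3a and C5a fragments, while epithelial cells and fibroblasts make C3, factor B and several regulators.

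The genes described here are 9 complement components, regulators and receptors: C1qa, C1qb, C1qc, C3, Cfb, Serping1, Cd55, C3ar1 and C5ar1, out of 18193 genes that the array annotation names by a single symbol. A probe set (the group of array probes designed for 1 transcript) was taken for a gene when that symbol was its only one. This gave 15 probe sets for 8 genes. No probe set listed under C3 alone was found in the annotation used here, so C3 was not analysed. All 15 probe sets passed the filter on low signal, which kept the brighter 50% of probe sets.

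Messenger RNA was measured on 9 Affymetrix arrays from lung cells in culture, labelled as type II cells (the surfactant-making cells of the alveolar epithelium). The cells came from female ICR10 mice of 2 months, either Nrf2+/+ (wild type, 3 arrays) or Nrf2-/- (knockout, 3 arrays), and were grown for 5 days with keratinocyte growth factor. The last group of 3 arrays held Nrf2-/- cells supplemented with GSH, the usual abbreviation of the antioxidant glutathione, so both knockout groups share the deletion of Nrf2, a regulator of antioxidant genes. The comparison named in the series title, wild type against Nrf2-/-, asks how loss of Nrf2 changes gene expression in these cells; no dose or timing of GSH was found in the labels, and the treatment field of every array reads no treatment. The preparation had steps meant to remove macrophages, on IgG-coated plates, and fibroblasts, by adherence. Markers of both cell types were still read on the arrays, as given below. The labels give 1 tissue per array and leave unsaid whether a group's arrays are different animals or cultures. A p-value here therefore reflects array-to-array spread, part or all of which may be technical.

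The genotype was borne out by the brightest probe set of Nfe2l2, which encodes Nrf2. Its signal was 3879 to 4173 on wild-type arrays, 28.7 to 77.4 on knockout arrays and 33.3 to 46.2 with GSH. The other Nfe2l2 probe set was below the filter and did not follow this pattern. It read 35.8 to 51.6 for wild type, above the control level on 1 array, so it could hardly show a loss. Knockout arrays read 34.4 to 68.6 by it. GSH arrays were higher, at 121 to 188.9 (1.71 against knockout, limma adjusted p = 0.0066 without the filter). Xist, the RNA of the inactive X chromosome, read 157 ± 28.2 in wild type against 3203 ± 1248 in knockout and 3510.0 ± 1112 with GSH (SD, n = 3), and the Y-linked gene Eif2s3y read 801 ± 121, 9.27 ± 13.1 and 7.43 ± 7.68. Sex-linked genes therefore went against the female label in wild type, and genotype and sex cannot be told apart in either comparison with wild type. Of the markers of type II cells, Sftpc, the defining surfactant protein, was at or below the control level on all 3 wild-type arrays by its brightest probe set. That probe set read 89.1 ± 48.7 in knockout and 108 ± 30.3 with GSH, and was below the filter and not tested. The other Sftpc probe set was at or below the control level on all 9 arrays, with means of 17.0, 12.5 and 11.4. The type II markers Sftpb, Sftpd, Abca3, Napsa, Slc34a2 and Etv5 were above the control level on all 9 arrays. Their wild-type means ran from 191 (Napsa) to 944 (Etv5). In knockout, Sftpd was lower (-1.06, limma adjusted p = 0.00035) and Napsa higher (1.13, limma adjusted p = 5.4e-05). The other 4 of these were not called in knockout. The control level is the 95th percentile of the bacterial control probe sets of an array, 43.45 to 82.9. A number in the sample titles puts 2 arrays of each group in a set called 2 and 1 array in a set called 3, and the model has a term for it.

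In Nrf2-/- cells the C1q chains, the receptors for C3a and C5a, Cfb and Serping1 were all higher than in wild type, at 1.57-fold for Cfb and up to 5.12-fold for C1qc. Cd55 was the only measured gene of the 8 that was not higher. Supplementation with GSH left a different pattern: Serping1 was 10.9-fold lower than in knockout cells without it, Cfb was 1.47-fold higher and C1qc 1.31-fold lower, while the C3ar1 and C1qa differences did not pass the test. Signals below are array units on a linear scale with the arrays of set 2 first and that of set 3 last. Differences are log2 values from limma, and adjusted p is Benjamini-Hochberg over 22519 probe sets.

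**Figure D1:**
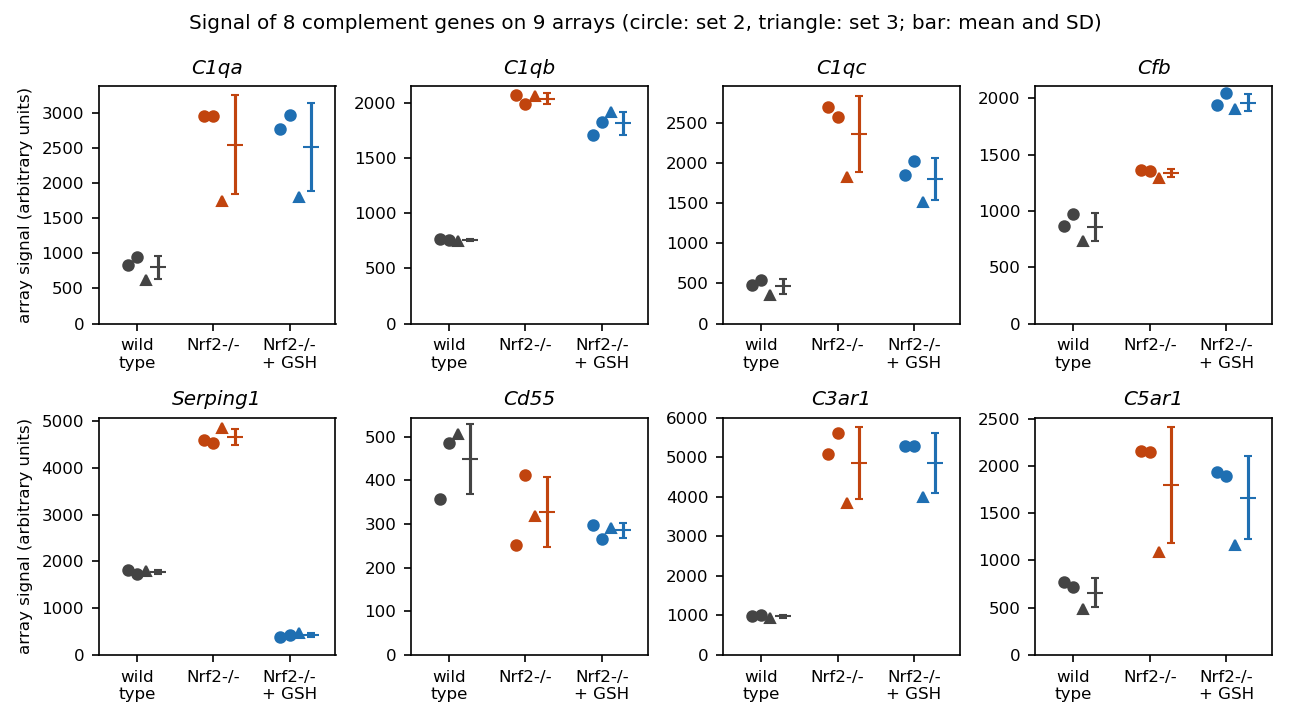
Array signal in arbitrary units (vertical axis) of the brightest probe set of 8 complement genes on 9 arrays in 3 groups; circles are arrays of set 2, triangles the array of set 3, and the bar beside each group is the mean with its SD. The knockout arrays lie above all wild-type arrays for every gene but Cd55, and Serping1 falls from 4524 or more in knockout to 467 or less with GSH.

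Between knockout and wild type, 7 of the 8 genes, each by its probe set with the highest mean signal, were called higher and 0 lower. Across all probe sets tested, 29.1% were called in this comparison, 14.6% higher and 14.6% lower. The median log2 difference of the 8 genes was 1.42, against 0.0026 for all probe sets tested. Groups did not overlap for 7 of the 8 genes, which held for 30.2% of all probe sets. These 8 genes were chosen with earlier results of these data known.

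The recognition molecule of the classical pathway is C1q, whose C1qa, C1qb and C1qc genes lie next to each other in the RefSeq gene table. C1qa, the A chain, had signals of 839, 943 and 623.5 in wild type, 2956, 2964.5 and 1741 in knockout and 2780.1, 2973 and 1803 with GSH. The wild-type arrays were all below the lowest knockout array, and the set 3 array was the dimmest of each group. The means were 802 ± 163, 2554 ± 704 and 2519 ± 628 (SD, n = 3), a log2 difference of 1.65 between knockout and wild type (SE 0.077, limma adjusted p = 6.3e-08). Within set 2 that difference was 1.73 and within set 3 it was 1.48. With GSH the difference from knockout was -0.011 (95% interval -0.18 to 0.16).

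C1qc, the C chain, read 481, 549.5 and 359 in wild type, 2702, 2579.5 and 1827 in knockout and 1861, 2029.9 and 1515 with GSH. Each GSH array was below the knockout arrays of its own set, although the GSH and knockout groups overlapped across sets. The knockout mean of 2369 ± 474 against 463 ± 96.3 in wild type gave a log2 difference of 2.36 (SE 0.081, limma adjusted p = 6.5e-09). With GSH the mean was 1802 ± 262, lower than in knockout by a log2 difference of -0.38 (SE 0.081, limma adjusted p = 0.0031). Within set 2 this difference was -0.44 and within set 3 it was -0.27. The call was lost with no term for the set (limma adjusted p = 0.23) and with the replicate number as a block over all 9 arrays (0.082), but not with that block over the 6 knockout arrays alone (0.0078). The block over 9 arrays joins wild type replicate 4 of set 2 with knockout and GSH arrays of set 3. Its r with them, over deviations from group means, was -0.49 and -0.45. All pairs of arrays from different groups and sets had a negative r. These values therefore cannot decide whether the number pairs arrays across genotypes. Within set 2, wild type replicate 3 gave 0.42 and 0.30 with knockout and GSH replicate 3. With replicate 2 of those groups it gave 0.43 and 0.41.

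C1qb, the B chain, was read by 3 probe sets. The brightest gave 763, 753 and 751 in wild type, 2068, 1987 and 2067 in knockout and 1708, 1828 and 1916 with GSH. Its groups did not overlap in any of the 3 comparisons. The log2 difference between knockout and wild type was 1.43 (SE 0.068, limma adjusted p = 6.5e-08). By the other probe sets it was 1.93 and 0.97, so the direction was shared and the size was not. The brightest and the probe set with 0.97 carry the suffix that Affymetrix gives to probes that may also bind other transcripts. Against knockout, the GSH arrays differed by -0.17, -0.20 and -0.20 by the 3 probe sets, none of which passed the test (limma adjusted p = 0.077, 0.12 and 0.085). The 95% interval of the brightest ran from -0.32 to -0.019.

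Promoters of C1qb and C1qc are shown because these neighbouring genes were higher together in knockout cells. They come from RefSeq (GRCm38.p6) and run from 250 bases before the start listed for each promoter to 50 bases from it. Both are on the minus strand, C1qb at chr4:136886151-136886450 and C1qc at chr4:136892865-136893164. Capitals mark GAGGAA or its reverse complement, the core read by PU.1, a transcription factor of myeloid cells. The table held a promoter for 6 of the 9 genes, and C1qa, Cfb and Serping1 had no entry.
C1qb: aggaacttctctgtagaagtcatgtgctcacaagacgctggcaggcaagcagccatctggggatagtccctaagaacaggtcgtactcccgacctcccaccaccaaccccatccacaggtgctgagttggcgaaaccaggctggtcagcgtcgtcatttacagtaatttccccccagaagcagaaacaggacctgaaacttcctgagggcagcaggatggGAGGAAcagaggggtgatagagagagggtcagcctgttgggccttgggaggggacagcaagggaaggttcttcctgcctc
C1qc: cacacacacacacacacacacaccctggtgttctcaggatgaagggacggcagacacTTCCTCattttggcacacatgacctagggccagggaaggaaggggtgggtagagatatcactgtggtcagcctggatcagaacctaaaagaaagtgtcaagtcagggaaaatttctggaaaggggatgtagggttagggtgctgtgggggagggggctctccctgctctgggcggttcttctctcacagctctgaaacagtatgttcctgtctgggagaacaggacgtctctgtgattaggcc

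Each of the 2 promoters held 1 match to the PU.1 core, on the plus strand of the gene in C1qb and on its minus strand in C1qc, and 28.3% of all 32851 promoters in the table held at least 1 on either strand. The loose core of the antioxidant response element that Nrf2 binds, TGANNNNGC, matched 2 times in C1qb and 1 time in C1qc, with 41.3% of all promoters holding a match. The promoters of Cd55, C3ar1 and C5ar1 held no match to either. The NF-kB core matched 1 time in C3ar1 (1.63% of all promoters), and the interferon-stimulated response element (3.44%), the gamma-activated site TTCNNNGAA (8.3%) and the C/EBP core TTGCNNAA (10.8%) matched in none of these 5. The promoter of C3, whose signal was not analysed, held 1 match to the C/EBP core and 1 to the antioxidant response element core. These matches describe letters within a window of 300 bases and nothing more. For C1qc, Cd55 and C5ar1 the listed start lies inside the gene as RefSeq places it. The Cd55 window lies wholly inside the gene, so its lack of matches does not describe bases before the gene. The C5ar1 window (chr7:16259289-16259588) lies mostly inside its gene, which RefSeq places at chr7:16246743-16259540. Its lack of matches therefore describes few bases before that gene.

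Cfb encodes factor B, the protease that joins C3b to form the alternative pathway convertase. It read 870.0, 974 and 729 in wild type, 1361, 1359 and 1296 in knockout and 1942, 2044 and 1904 with GSH. The 3 groups formed separate steps with no overlap. The means were 858 ± 123, 1339 ± 36.9 and 1963 ± 72.7 (SD, n = 3). The step from wild type to knockout was 0.65 (SE 0.083, limma adjusted p = 0.00014) and that from knockout to GSH 0.55 (SE 0.083, limma adjusted p = 0.00030). Both steps were present within each set, at 0.56 and 0.55 in set 2 and at 0.83 and 0.55 in set 3.

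Serping1 encodes the C1 inhibitor, which blocks the C1r and C1s proteases attached to C1q. Its signals were 1812, 1737 and 1797 in wild type, 4588, 4524 and 4853 in knockout and 393.5, 426 and 467 with GSH. The groups lay far apart, with knockout highest and GSH lowest. Between knockout and wild type the log2 difference was 1.38 (SE 0.069, limma adjusted p = 9.2e-08). Between GSH and knockout it was -3.44 (limma adjusted p = 1.4e-10), from a mean of 4655 ± 174 to 429 ± 36.9. The GSH mean was also 4.17-fold below the wild-type mean of 1782 ± 40.0 (log2 difference -2.06, limma adjusted p = 2.0e-09). Within set 2 and set 3 the fall with GSH was -3.48 and -3.38. In RefSeq, Serping1 lies on the same chromosome as Nfe2l2.

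Cd55 encodes decay-accelerating factor, a membrane protein that takes the C3 convertases apart. By its brightest probe set it read 357, 485.5 and 505 in wild type, 251, 412 and 318 in knockout and 297.5, 266 and 291 with GSH. Wild type and knockout overlapped. The log2 difference between them was -0.47 (95% interval -0.89 to -0.052, limma adjusted p = 0.088). Leaving out 1 array moved it from -0.69, called without knockout replicate 3 (limma adjusted p = 0.013), to -0.30, without knockout replicate 2 (0.28). Of the other 2 probe sets, one was not called in this comparison (-0.53, limma adjusted p = 0.092) and the other was called lower (-0.51, limma adjusted p = 0.046).

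Against wild type, the GSH arrays were lower in Cd55 by all 3 probe sets, at -0.64, -0.59 and -1.18 (limma adjusted p = 0.017, 0.047 and 0.00019). The call of the brightest was lost with the replicate block over 9 arrays (limma adjusted p = 0.18) and without wild type replicate 4 (0.074) or 5 (0.083) and without GSH replicate 3 (0.051) or 4 (0.060). The probe set at -0.59 had overlapping groups. Leaving out 1 array moved it from -0.88 to -0.36, and its call was lost without any 1 of the wild-type arrays or without GSH replicate 2 or 3 (limma adjusted p = 0.084 to 0.19), as well as without the filter on low signal (0.080). The dimmest probe set, at 99.9, 96.5 and 121 with GSH against 166, 134 and 210.3 in knockout, also fell between these groups (-0.67, limma adjusted p = 0.011), where the others gave -0.17 and -0.056 and were not called. That call was lost without knockout replicate 4 (limma adjusted p = 0.052) and with the replicate block over the 6 knockout arrays (0.067). Its call between knockout and wild type was lost when any 1 of the 6 arrays was left out (limma adjusted p = 0.056 to 0.14).

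C3ar1 encodes the receptor for C3a, a chemotactic fragment of C3, and was read by 3 probe sets. The brightest gave 993, 999 and 933.5 in wild type, 5083, 5620.5 and 3848 in knockout and 5286, 5290.5 and 3982 with GSH. Every knockout array exceeded every wild-type array, with or without GSH, and both knockout groups covered much the same range. The log2 difference between knockout and wild type was 2.30 (SE 0.083, limma adjusted p = 9.4e-09), and 2.12 and 2.19 by the other probe sets. Between GSH and knockout the 3 probe sets differed by 0.0062, 0.10 and 0.046, and the 95% interval of the brightest was -0.18 to 0.19.

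C5ar1 encodes the main receptor for C5a, which draws in and activates neutrophils and macrophages. By its brightest probe set it read 769, 719 and 482.5 in wild type, 2159, 2148 and 1084.5 in knockout and 1934, 1896 and 1160.1 with GSH. The knockout and wild-type groups did not overlap, although the set 3 array of each was far dimmer than those of set 2. The log2 difference was 1.41 (SE 0.086, limma adjusted p = 4.1e-07), at 1.54 in set 2 and 1.17 in set 3, and 1.72 by the other probe set. Between GSH and knockout the brightest probe set gave -0.081 (95% interval -0.27 to 0.11) and was not called. The other fell from 1438 ± 63.6 to 1143 ± 79.8 (-0.33, limma adjusted p = 0.0074), so the 2 probe sets did not give the same call.

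**Figure D2:**
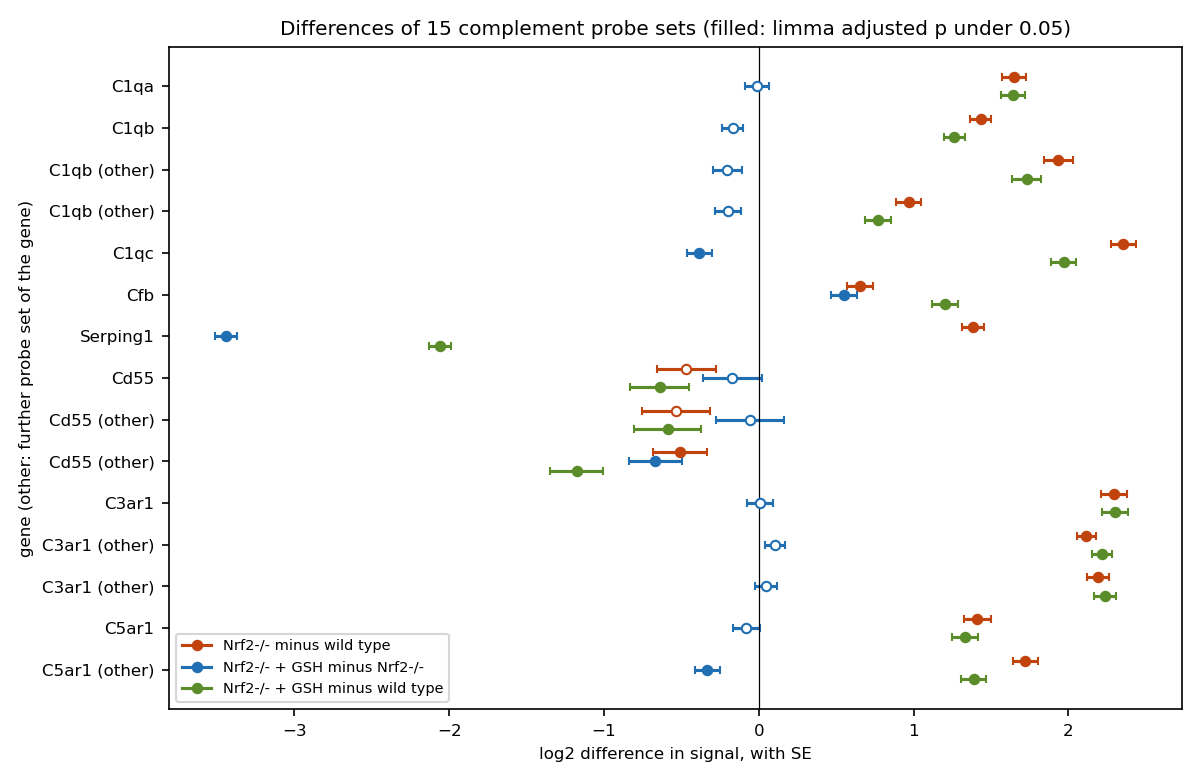
Log2 difference in signal with its SE (horizontal axis) of 15 probe sets of 8 complement genes in 3 comparisons; filled points passed the limma test at an adjusted p under 0.05. Knockout minus wild type lies between 0.65 and 2.36 for the brightest probe sets of the 7 genes called higher, and Serping1 lies at 1.38 there and at -3.44 for GSH minus knockout.

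Between GSH and knockout, 1 of the 8 genes was called higher and 2 lower, while 35.4% of all probe sets were called, 18.4% higher and 17.0% lower. That share lies near the background. The median of the 8 genes was -0.12, against 0.041 for all probe sets tested. The groups did not overlap for 3 of the 8 genes (33.6% of all probe sets). Between GSH and wild type, 6 genes were higher and 2 lower, where 44.7% of all probe sets were called, 22.5% higher and 22.3% lower. The median there was 1.30 against 0.021. The groups did not overlap for 8 of the 8 genes (43.4% of all probe sets). The comparisons share arrays, so their values are not independent of each other.

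Other complement genes were taken from a list of 47 that are not among the 9. The serine proteases that C1q carries and that Serping1 blocks are C1r and C1s. C1ra, which encodes C1r, read 682, 637 and 652.5 in wild type, 1157, 1249.7 and 971 in knockout and 418, 453 and 421 with GSH. It rose in knockout (0.77, limma adjusted p = 0.00013) and fell with GSH (-1.38, limma adjusted p = 6.6e-07), so its groups stood in the same order as those of Serping1. C1s1, which encodes C1s, read 1587, 1713.5 and 2164 in wild type, 1965, 2203 and 2371.5 in knockout and 150.5, 176 and 221 with GSH. It fell by 3.59 on the log2 scale with GSH (limma adjusted p = 3.4e-10), and its difference between knockout and wild type was 0.27 (limma adjusted p = 0.058).

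Of 16 classical and lectin pathway genes, 12 were on the array by a single symbol and 7 passed the filter. Of these, 1 was higher and 0 lower in knockout, and 1 was higher and 3 lower with GSH. Across all probe sets, 29.1% and 35.4% were called in these 2 comparisons. C2, the protease of the classical C3 convertase, fell with GSH (-0.95, limma adjusted p = 0.00038). Colec12, a scavenger receptor of the collectin family, rose (0.79, limma adjusted p = 0.00021). Cfp, the properdin gene whose product stabilises the alternative convertase, rose in knockout from 1337 ± 279 to 4672 ± 1251 (1.79, limma adjusted p = 3.0e-08) and again with GSH to 6374 ± 1186 (0.47, limma adjusted p = 0.00054), although those 2 groups overlapped across sets. The other, dimmer Cfp probe set was not called in either comparison (0.32 and 0.11, limma adjusted p = 0.20 and 0.67). Cfp was the 1 alternative pathway gene on the list of 2 that could be named here. The terminal pathway had 6 of 7 genes on the array, none of which passed the filter. C8a, C8b and C8g, parts of the membrane attack complex, were at or below the control level on all 9 arrays.

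Of 14 further regulators, 7 passed the filter, with 1 higher and 2 lower in knockout and 2 higher and 1 lower with GSH. The shares of all probe sets called in these comparisons were 29.1% and 35.4%. Cd59a, which blocks the membrane attack complex, fell in knockout from 1411 ± 226 to 445.5 ± 113 (-1.68, limma adjusted p = 3.2e-06), and its GSH mean was 474 ± 27.2. Cr1l, the rodent membrane regulator Crry, rose slightly in knockout (0.37, limma adjusted p = 0.045), a call that was lost without the filter (0.084). Clu, the chaperone clusterin, rose with GSH (0.50, limma adjusted p = 0.0035). C1qbp, a mitochondrial protein named for its binding to C1q, fell with GSH by its brightest probe set (-0.23, limma adjusted p = 0.030, and 0.056 without the filter). Its other probe set was lower with GSH too (-0.26, limma adjusted p = 0.015) and also lower in knockout (-0.34, limma adjusted p = 0.0042). Susd4, an inhibitor of the C3 convertase, was also called lower in knockout and higher with GSH, at 213 ± 26.5, 59.1 ± 36.2 and 235 ± 41.0 in the 3 groups.

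Among 8 receptors, 5 passed the filter, with 3 higher and 1 lower in knockout and 2 higher and 0 lower with GSH. For all probe sets the shares called were 29.1% and 35.4%. Itgam, the alpha chain of complement receptor 3, rose in knockout (0.95, limma adjusted p = 6.8e-05), whereas Itgax, that of complement receptor 4, fell (-1.18, limma adjusted p = 3.3e-07) and rose with GSH (1.90, limma adjusted p = 3.7e-09). Itgb2, their shared beta chain, rose with GSH (0.56, limma adjusted p = 0.00080). Cd93, once taken for a C1q receptor, rose in knockout (0.87, limma adjusted p = 4.2e-06), as did Calr, the chaperone calreticulin (0.32, limma adjusted p = 0.0032).

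**Figure D3:**
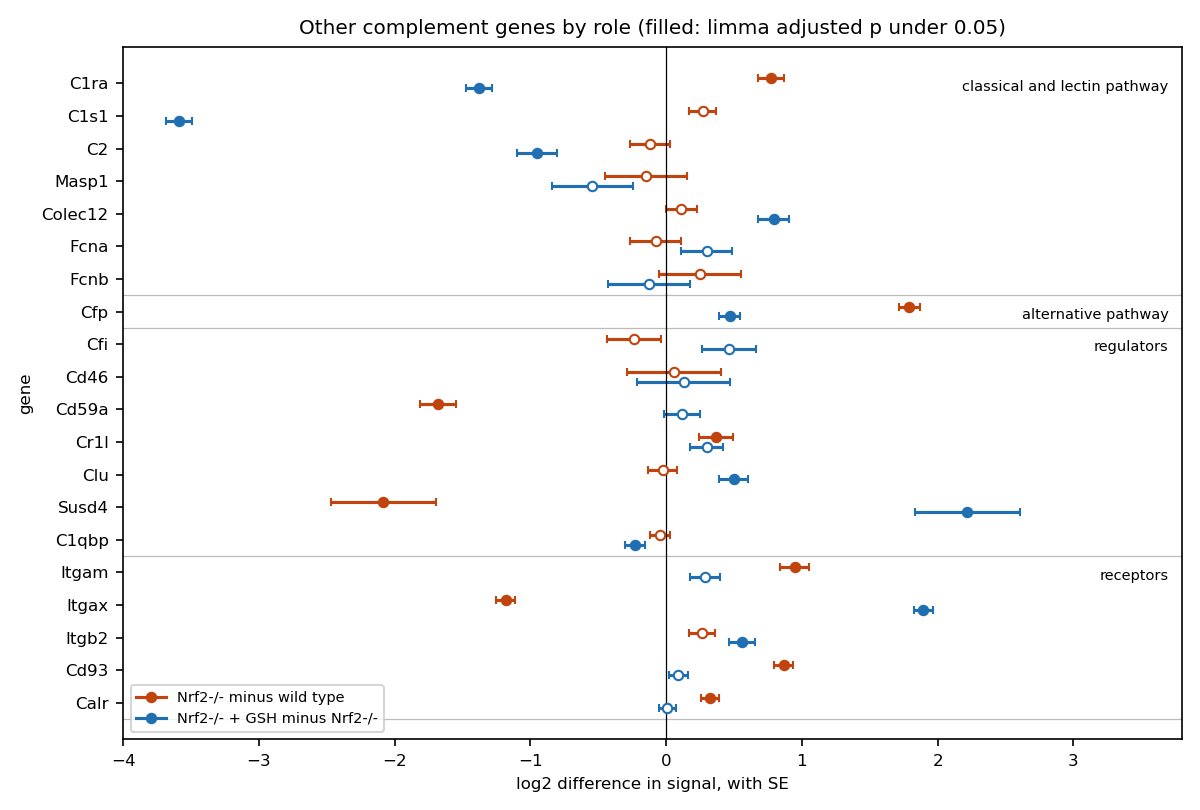
Log2 difference in signal with its SE (horizontal axis) of 20 other complement genes that passed the filter, grouped by role, for knockout minus wild type and for GSH minus knockout; filled points passed the limma test at an adjusted p under 0.05. C1s1 and C1ra lie at -3.59 and -1.38 with GSH, and Cfp at 1.79 in knockout.

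Markers of the other cells such a culture could hold moved in the same comparisons. Beside the counts that follow, 29.1% of all probe sets were called in knockout against wild type and 35.4% in GSH against knockout. Of 16 macrophage markers kept by the filter, 15 were higher and 0 lower in knockout (median 0.80), and their summed signal was 66579.6 to 69899.5 on wild-type arrays and 106319.3 to 125872.1 on knockout arrays. With GSH 12 were higher and 0 lower than in knockout (median 0.53), and the summed signal was 143801.6 to 170353.9. In that comparison C1qc fell and the C1qa and C3ar1 differences were not called. Fcgr1, Mrc1, Aif1 and Lyz2 of the macrophage list were not called there either. Their differences were 0.10, 0.16, 0.16 and -0.046 (limma adjusted p = 0.27, 0.074, 0.18 and 0.77). Adgre1, which encodes the macrophage antigen F4/80, read 4276 ± 606, 10155 ± 899 and 13736.5 ± 181 in wild type, knockout and GSH, and Csf1r, the receptor for the macrophage growth factor CSF1, read 5818 ± 269, 9151 ± 2041 and 15125 ± 2346. Cd163 alone of the list was left out by the filter; it lay above the control level on 1 array. In such mixed cultures, more cells of a type and more RNA per cell cannot be told apart.

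Of 7 alveolar macrophage markers, 3 were higher and 3 lower in knockout (median -0.096), and 5 higher and 1 lower with GSH (median 1.04). Their summed signal was 9963 to 11152 in wild type, 12066 to 12934 in knockout and 14897 to 16330.3 with GSH. The members did not move together. Marco, a scavenger receptor, read 4236 ± 76.6, 6750.0 ± 729 and 5817 ± 247, with wild type lowest and knockout highest, as for the means of the C1q genes. Car4 and Chil3 were also higher in knockout (0.63 and 0.37, limma adjusted p = 7.7e-05 and 0.00046), whereas Siglecf, a surface lectin, Itgax and Fabp1 were lower (-1.80, -1.18 and -0.84, limma adjusted p = 9.3e-06, 3.3e-07 and 0.015).

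Of 12 fibroblast and mesenchymal markers kept by the filter, 9 were higher and 1 lower in knockout (median 0.46), and 0 higher and 12 lower with GSH (median -2.14). Their summed signal was 84629.5 to 90271.7 in wild type, 101158.5 to 137868.5 in knockout and 41634 to 49386.6 with GSH. Col1a1 was counted as higher in knockout by its brightest probe set (0.40, limma adjusted p = 0.016), although wild type and knockout overlapped. Its other probe set was called lower in knockout (-0.49, limma adjusted p = 0.0036). Pdgfra, a receptor of mesenchymal cells, read 3336 ± 623, 6616 ± 1709.6 and 375.5 ± 12.1, and the collagen gene Col3a1 9719.97 ± 393, 13537 ± 1426 and 1174 ± 84.8. Knockout was highest and GSH lowest for both by their brightest probe sets, as for Serping1 and C1ra. By the other Col3a1 probe set, wild type and knockout overlapped (0.11, limma adjusted p = 0.62). Not all markers of the list stood in that order. Thy1 was highest in wild type, at 1941, 1281 and 440, and Eln was lowest there, at 249, 415 and 300. Pdgfrb and Tagln were not called in knockout. Mfap4 was at or below the control level on all 9 arrays. The part of these cell types in the complement values was not tested.

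All 7 epithelial markers were lower in knockout (median -1.82) and higher with GSH (median 2.29), with a summed signal of 50927 to 51616.6, 14497 to 15423 and 69310.1 to 75499.9. Of 6 type II markers kept, 1 was higher and 1 lower in knockout and 3 were higher with GSH, with sums of 2967 to 3571, 3227.5 to 3544 and 4369 to 4968. Of 3 neutrophil markers kept, 2 were higher in knockout and 1 with GSH (sums 1601 to 2177, 5297 to 8033 and 7321 to 8004), with S100a9 at or below the control level on all 9 arrays. Of 5 endothelial markers kept, 2 were lower in knockout and 1 was higher with GSH, and of 2 lymphocyte markers none was called in either comparison. Cd3g and Nkg7 of the latter list were at or below the control level on all 9 arrays.

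**Figure D4:**
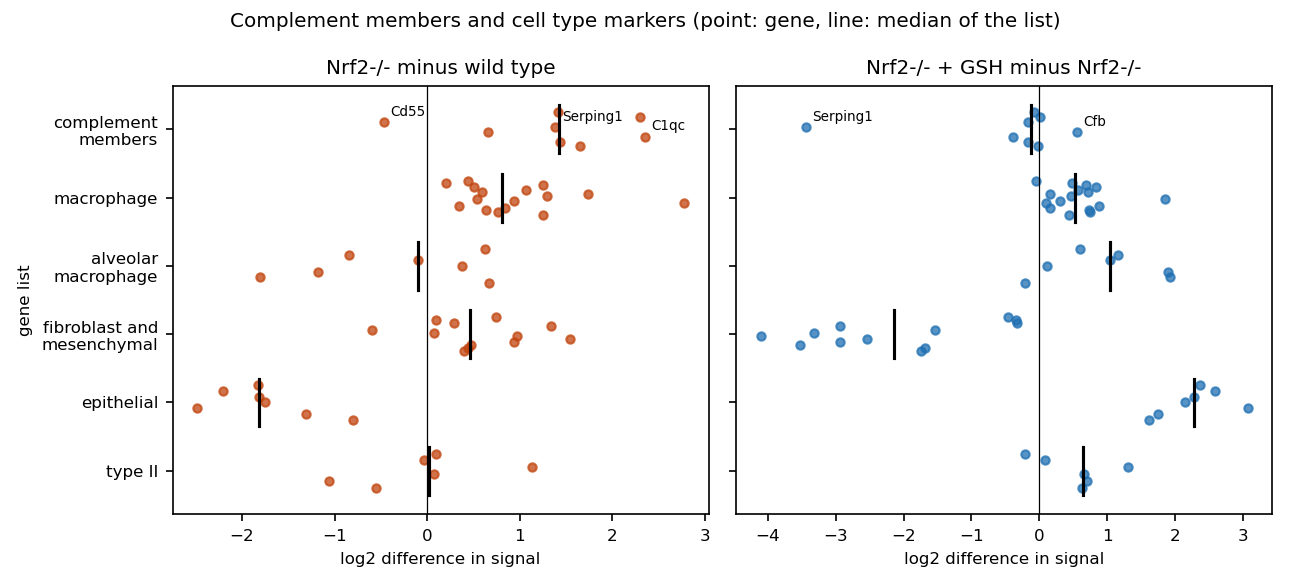
Log2 difference in signal (horizontal axis) of the 8 complement genes and of markers of 5 cell types, for knockout minus wild type (left) and GSH minus knockout (right); a point is a gene and the line is the median of its list. The median of the macrophage list is 0.80 on the left and 0.53 on the right, and Serping1 lies at -3.44 on the right, where the fibroblast median is -2.14.

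The likeness of 2 patterns was measured as the root mean square difference of their log2 signals over the 9 arrays, each centred on its own mean; 20099 probe sets with 1 symbol were searched. For C1qc the nearest gene outside its own was the interferon-induced Ifi27l2a at 0.20, followed by C3ar1 at 0.21 and Dhx58, a cytosolic RNA sensor, at 0.22. The median distance from C1qc to all probe sets was 1.10. By their brightest probe sets, C1qa and C5ar1 were each other's nearest gene at 0.16, and both share the dim set 3 arrays. The other C5ar1 probe set lay 0.30 from C1qa. For C3ar1, Slamf9 was nearest at 0.14 and Mmp8, the neutrophil collagenase, next at 0.19. For Serping1 the nearest were Sfrp1, a secreted Wnt antagonist, at 0.17, Mgp, the matrix Gla protein gene, at 0.17 and Plac8 at 0.18, against a median distance of 1.46. The brightest C1qb probe set was nearest to Rapgef5 at 0.076, Lgals3bp at 0.10 and the interferon-induced Usp18 at 0.11. Cfb was nearest to Slc25a45 at 0.076, and Cd55 to Tamm41 at 0.15 against a median of 0.46. These distances follow the order of the 3 groups and are a description of 9 arrays.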

How the data were processed

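The authors deposited 1 linear intensity per probe set and array; the arrays are Affymetrix mouse arrays, per the labels. Every array had the same 2% trimmed mean, so the deposited intensities had been scaled; no source used here names the software. The number of arrays limits the precision. Of 45101 probe sets, 64 controls were left out. Intensities were taken to log2 (values below 0.1 set to 0.1), and the 22519 probe sets at or above the median mean signal (115.9) went into 1 limma model (version 3.58.1, R 4.3.3) of all 9 arrays, with group and set as terms and an intensity trend. The script was tested on simulated data. The platform annotation held by GEO named a single gene for 34945 probe sets (34741 matched to RefSeq), more than 1 for 932 and no gene for 9160.

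A gene is counted by its probe set with the highest mean. Named genes were all members, Nfe2l2 and, of other complement genes, those called in at least 1 comparison, at most 4 a role by mean signal; Susd4, Cd93, the terminal pathway genes and single marker genes fall outside this rule and were named after their values were seen. Members and lists were chosen with earlier results of these data known. The 2 knockout groups have the replicate numbers 2, 3 and 4 in common, and a block on these numbers was run as an alternative. Same-numbered arrays gave an r of deviations from group means of 0.32, 0.29 and 0.67. Crossed pairs within set 2 gave 0.24 and 0.39. Within set 3, wild type replicate 5 and knockout replicate 4 gave 0.70. These values therefore do not show that the number pairs arrays. Alternatives were other normalisations, filters, floors and models, the replicate block, leaving out each array and the rule of the series design text.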

Additional observations from a re-analysis of the deposited data

How the results depend on the processing

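Of 33 called differences of member probe sets, each recomputed under the alternatives, 495 of 528 values kept direction and call, 33 kept the direction only and 0 reversed; the calls lost were of Cd55 and, between GSH and knockout, of C1qc. With the 12 differences not called, 4 of 198 values passed the test and 16 reversed. All of these reversals lay between GSH and knockout: C3ar1 reached -0.0087 with quantile normalisation and, in set 2 alone, -0.018 and -0.015 by 2 probe sets; leaving out 1 array gave -0.069 to 0.011 for C1qa, -0.0029 to 0.11 and -0.068 to 0.073 for C3ar1, and -0.34 to 0.045 and -0.35 to 0.17 for Cd55. Members called between GSH and knockout went from 3 to 5 with the probe set of smallest p for each gene and to 1 by the rule of the series design text; members called against wild type stayed at 7 or 8 under every alternative run. All probe sets called went from 6560, 7964 and 10074 (knockout against wild type, GSH against knockout, GSH against wild type) to 2774, 4574 and 6181 with no term for the set and to 2541, 3721 and 4838 by the rule of the series design text. With the replicate block in place of the set they were 3253, 5824 and 6586, and 6888 with the replicate block over the 6 knockout arrays. The cause was not tested. Low signal limits the terminal pathway genes, none of which passed the filter.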
